A study of Rattus norvegicus with 15 samples.

Results

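The effect of naringenin in the presence of CSE was followed in 10 of the 15 libraries of cultured rat airway epithelium, 5 from cells given CSE with naringenin and 5 from cells given CSE alone. The members were chosen by label, with all 21969 genes of the deposited table in scope. Cells of the first group had 100 µM naringenin for 4 h and then 10% CSE together with naringenin for 24 h. Cells of the second group had 10% CSE for 24 h. The 5 control libraries, from cells with neither agent, give the level without treatment and share the fit. All cells came from rat trachea and were grown on inserts at an air-liquid interface for weeks in commercial differentiation medium. The labels give CSE as an abbreviation, which is left unexpanded here. The labels name no strain, animal or culture. The p-values therefore reflect spread among these samples alone, and that spread may be technical. No library had naringenin alone, so a difference between the 2 groups is a difference in the presence of CSE.

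Naringenin is a flavanone of citrus fruit. In airway epithelium, xenobiotics that bind the aryl hydrocarbon receptor (AhR) induce cytochrome P450 genes, and electrophiles release the transcription factor NRF2 from its inhibitor KEAP1, so that it induces genes for glutathione and thioredoxin metabolism, carbonyl reduction, NADPH supply and heme breakdown. Damaged protein induces heat shock genes in the cytosol through HSF1 and chaperone genes of the endoplasmic reticulum through the unfolded protein response. Fatty acids are burned in mitochondria under control of the PPAR receptors, whereas sterol and fatty acid synthesis genes answer to the SREBP factors.

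The libraries were alike in depth. The 5 libraries of CSE with naringenin held 55.1 to 59.8 M counts (1 M is 1e+06) and those of CSE alone 57.5 to 60.6 M. Mitochondrially encoded genes took 7.69% to 9.33% of the counts with naringenin and 7.47% to 9.21% with CSE alone. Clustering of the deviations from the group means, with the number of sets fixed at 3, placed the 15 libraries in sets that cut across the groups. Set 1 holds naringenin libraries 3 and 4 and CSE libraries 1 and 3, set 2 holds naringenin libraries 1 and 2 and CSE libraries 2 and 4, and set 3 holds library 5 of each group. The sets were found from these same counts, and no label names them. Libraries of 1 group within a set may be repeats of 1 culture, which the labels neither state nor deny. All 15 markers of airway epithelium passed the filter on low counts, with a summed level of 6333 to 6853 CPM (counts per 1e+06 after TMM scaling) with naringenin and 5733 to 6559 CPM with CSE alone.

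Of 15860 genes tested, 144 (0.908%) passed an adjusted p of 0.05 in edgeR's quasi-likelihood test, 53 of them (0.334%) higher with naringenin and 91 (0.574%) lower. Most of these differences were small. A change of at least 2-fold was reached by 16 genes (10 higher, 6 lower) and one of at least 1.5-fold by 47 (22 higher, 25 lower). For 142 of the 144 genes every naringenin library lay on 1 side of every CSE library, which holds for 4.77% of all tested genes. They are 51 higher genes, against 1.97% of all tested genes, and 91 lower genes, against 2.8%. The other 2 are Grik2 and Dhcr7. Each of the 144 differed in the same direction within all 3 library sets, which holds for 7893 of the 15860 tested genes. The 144 were called on these same libraries, so their shared sign is no independent support. With the library set as a block, 2015 genes passed (12.7%), among them all 144, with 1057 higher (6.66%) and 958 lower (6.04%). The sets were drawn from the spread of these same counts, so p-values with the block are likely too small. They stand beside the main fit and do not replace it. On counts summed per set and group, which treats the libraries of a set as 1 culture and leaves fewer samples, 196 genes passed (1.24%), 111 higher (0.7%) and 85 lower (0.536%), and 67 of the 144 were among them. Every count below is for the fit without sets. Where the count with the set block differs by over 1.5 times, it is given beside it together with the count on these sums, and for single genes the p on sums stands beside the p with the block. An unadjusted p under 0.05 was reached by 13.2% of all tested genes (2091), and 3.8% (602) passed in DESeq2, and the counts of list members at these thresholds are read against those shares.

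**Figure D1:**
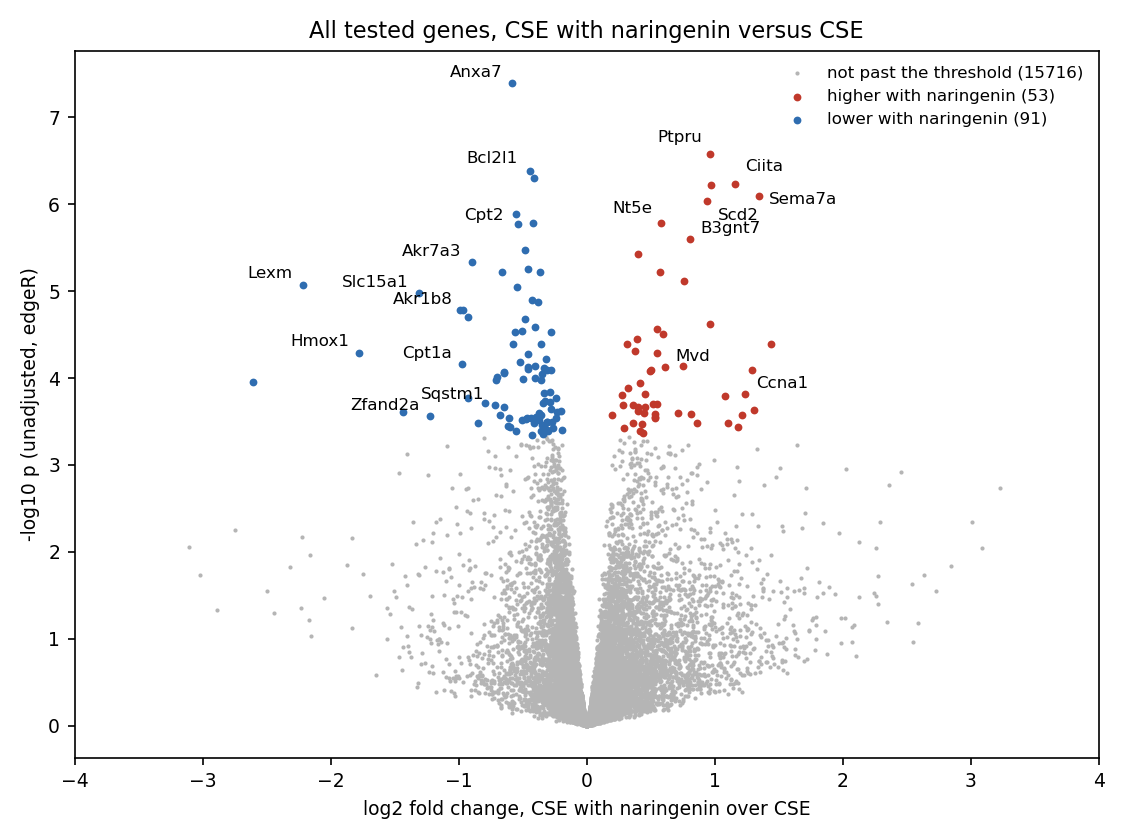
Log2 fold change of CSE with naringenin over CSE alone (x axis) against -log10 of the unadjusted p from edgeR (y axis) for all tested genes, with 4 genes beyond a log2 change of 4 outside the plot. Points in red (53) and blue (91) passed the threshold as higher and lower with naringenin, and the steepest falls among the labelled genes are those of Lexm and Hmox1.

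The gene with the largest fall among those of at least 5 CPM was Lexm on chromosome 5 (126196071 to 126221916 in the deposited table; no source used here names its build). Lexm had 4.41, 3.18, 6.69, 4.61 and 3.65 CPM in naringenin libraries 1 to 5, against 25.9, 13.3, 31.8, 16.3 and 17.5 CPM in CSE libraries 1 to 5. Every naringenin library was below every CSE library, and the control averaged 0.944 ± 0.546 CPM. The log2 fold change was -2.22 (SE 0.34, edgeR adjusted p = 0.00606), and the call remained without any single one of the 10 libraries.

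Hmox1 (chromosome 19, 14508616 to 14515456), which encodes heme oxygenase, the enzyme that opens heme to biliverdin, iron and carbon monoxide, came next. Its level was 202, 191, 304, 291 and 457 CPM with naringenin, against 1104, 558, 1262, 572 and 1449.8 CPM with CSE alone. In both groups library 5 was the highest and the set 2 libraries the lowest, and the groups did not overlap. Hmox1 averaged 289 ± 107 CPM with naringenin, 989 ± 406 CPM with CSE alone and 172 ± 61.9 CPM in the control (SD, n = 5 each). The log2 fold change was -1.78 (SE 0.32, edgeR adjusted p = 0.0181), with -1.99, -1.53 and -1.67 within sets 1, 2 and 3. Without naringenin library 1, naringenin library 4 or CSE library 3 the call was lost, at an adjusted p of at most 0.0645 in edgeR.

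Slc15a1 (chromosome 15, 106800081 to 106844426), the proton-coupled importer of small peptides, had 7.24, 4.98, 11.7, 8.12 and 6.71 CPM with naringenin, against 17.7, 18.8, 20.5, 19.5 and 19.6 CPM with CSE alone. The CSE libraries lay close together and all of them were above the highest naringenin library. Slc15a1 fell by 1.31 on the log2 scale (SE 0.20, edgeR adjusted p = 0.00699), and the control averaged 2.83 ± 0.753 CPM. Zfand2a, a zinc-finger gene induced by arsenite and heat that works with the proteasome, had 41.7, 36.4, 46.5, 39.8 and 52.8 CPM with naringenin, against 87.9, 62.4, 95.4, 67.5 and 195 CPM with CSE alone. CSE library 5 stood far above the other CSE libraries. The log2 fold change of Zfand2a was -1.22 (SE 0.26, edgeR adjusted p = 0.03995), it was lost without naringenin library 1, 2, 3, 4 or 5, or without CSE-alone library 1 or 3 (adjusted p up to 0.109), and it was -1.09 and -0.73 within sets 1 and 2 and -1.88 in set 3.

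Anxa7 (chromosome 15, 4254499 to 4281287), a calcium-dependent membrane-binding annexin, had the smallest p of all genes. It stood at 127, 129, 146, 142 and 129 CPM with naringenin, against 195, 196, 207, 197 and 211 CPM with CSE alone. The spread within each group was small next to the gap between them. Anxa7 fell by 0.58 on the log2 scale (SE 0.057, edgeR adjusted p = 6.36e-04). The control averaged 147 ± 7.43 CPM, against 135 ± 8.95 CPM with naringenin and 201 ± 7.27 CPM with CSE alone (SD, n = 5 each). Other genes with the smallest p among the falls were Bcl2l1, Rnh1, Cpt2, Ampd3 and Psmd5. Rnh1, the cytosolic inhibitor of ribonucleases, averaged 113 ± 2.92 CPM with naringenin and 150.1 ± 9.26 CPM with CSE alone (log2 -0.41, edgeR adjusted p = 0.00161). Ampd3, an AMP deaminase, averaged 73.98 ± 5.17 CPM with naringenin and 99.2 ± 3.46 CPM with CSE alone (log2 -0.42, edgeR adjusted p = 0.002202). NEWGENE_620180 averaged 14.8 ± 1.47 CPM with naringenin and 29.3 ± 4.11 CPM with CSE alone (log2 -0.99, edgeR adjusted p = 0.00942). It lies on chromosome 9 (52894365 to 52912293), on the same strand as Slc40a1 (52820683 to 52830457), which is given below. Whether these entries are parts of 1 gene was not tested. Slc15a1, Anxa7, Bcl2l1, Rnh1, Cpt2, Ampd3, Psmd5 and NEWGENE_620180 kept the call without any single library. Pip4p2, a phosphatase of the signalling lipid phosphatidylinositol bisphosphate, averaged 59.3 ± 7.597 CPM with naringenin and 96.7 ± 20.8 CPM with CSE alone (log2 -0.70, edgeR adjusted p = 0.02403), and lost the call without naringenin library 1, 2, 4 or 5, or without CSE-alone library 1, 3 or 5 (adjusted p up to 0.0855).

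**Figure D2:**
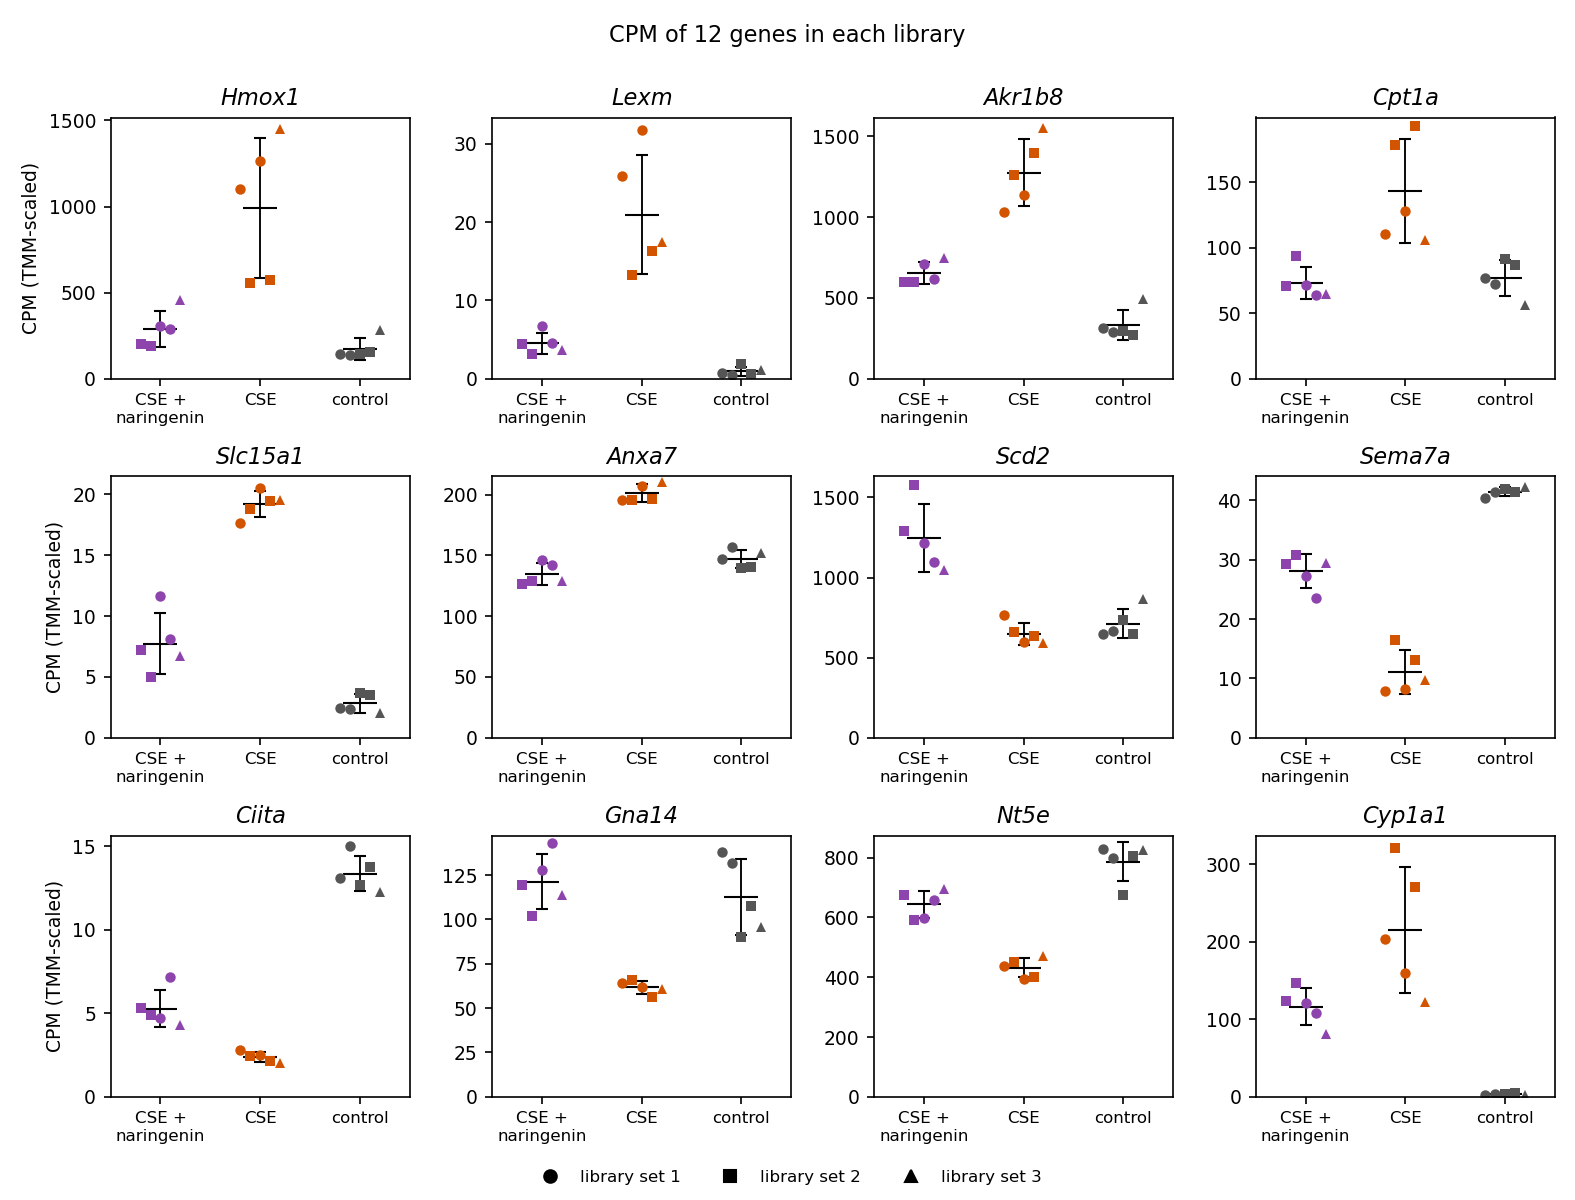
CPM after TMM scaling (y axis, from 0) of 12 genes in each library of CSE with naringenin, CSE alone and the control (x axis), with the mean and SD of 5 libraries in black and the library set as the marker shape. Lexm, Akr1b8, Slc15a1 and Anxa7 lie lower in all naringenin libraries than in any CSE library, Scd2, Sema7a, Ciita, Gna14 and Nt5e lie higher, and the groups overlap for Cyp1a1.

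Of 22 tested genes that NRF2 controls 3 fell (Hmox1, Sqstm1 and Me1), none rose, and 19 had a negative sign, with a median log2 fold change of -0.29 against 0.0046 over all tested genes. In the fit with the set block 13 members passed as lower and 0 as higher, and on sums 0 as higher and 4 as lower. Sqstm1, a cargo receptor of autophagy, had 669, 551, 872, 875 and 731 CPM with naringenin, against 1333, 960.1, 1585, 943 and 1264 CPM with CSE alone. The groups did not overlap, and the lowest libraries of each were those of set 2. Sqstm1 fell by 0.72 on the log2 scale (SE 0.15, edgeR adjusted p = 0.0368) and lost the call without naringenin library 1, 2, 4 or 5, or without CSE-alone library 1, 3 or 5 (adjusted p up to 0.106). Me1, the cytosolic malic enzyme that supplies NADPH, had 195 ± 12.2 CPM with naringenin and 249.98 ± 12.9 CPM with CSE alone (SD, n = 5 each), a log2 change of -0.36 (edgeR adjusted p = 0.0462). The call on Me1 was lost without any one of the 10 libraries (adjusted p up to 0.118) and on sums (edgeR adjusted p = 0.0514).

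Other members of the NRF2 list did not pass. Nqo1, a quinone reductase, had 3044, 3041, 3411, 3195 and 2892 CPM with naringenin, against 3690.2, 3867, 3959, 4047 and 3839.6 CPM with CSE alone. Its groups did not overlap, yet the log2 fold change of -0.32 (SE 0.10) had an edgeR adjusted p of 0.182, and 0.0134 with the set block and 0.1698 on sums. Txnrd1, thioredoxin reductase, averaged 726 ± 40.96 CPM with naringenin and 904 ± 68.6 CPM with CSE alone (log2 -0.32, edgeR adjusted p = 0.0865, 0.00627 with the block and 0.129 on sums). Gclm, a subunit of the first enzyme of glutathione synthesis, averaged 1015 ± 123 CPM with naringenin and 1202 ± 93.8 CPM with CSE alone (log2 -0.24, edgeR adjusted p = 0.207, 0.0223 with the block and 0.0987 on sums). Slc7a11, the cystine importer, averaged 335 ± 119 CPM with naringenin and 554 ± 134 CPM with CSE alone (log2 -0.73, edgeR adjusted p = 0.121, 0.00295 with the block and 0.0448 on sums). Prdx1, a peroxiredoxin, averaged 2072 ± 295 CPM with naringenin and 2870.1 ± 482 CPM with CSE alone (log2 -0.47, edgeR adjusted p = 0.0777, 7.82e-05 with the block and 0.0265 on sums). All of these stood above the control, where Nqo1 averaged 1115 ± 198 CPM, Txnrd1 569.9 ± 66.1 CPM, Gclm 488 ± 26.03 CPM, Slc7a11 109.7 ± 9.51 CPM and Prdx1 1692 ± 186 CPM. Prdx1, like Ptgr1, Tfrc, Plin2, Pdk4, Dgat2, Fads1, Fads2, Abca1, Hspa1b, Hspb1, Hspa5, Ppan, Wdr36, Usp14, Mgll, Sqor, Glrx, Ikbke, Trpv2, Plscr1, Fosl1, Fn1, Mmp13, Il33, Hydin, Muc4, Atp12a, Eng, Ifitm3, Cfap100, Ppl and Krt20 below, was chosen for mention after its values were seen.

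NRF2 binds the antioxidant response element, whose core letters TGACNNNGC were sought on both strands of promoters from RefSeq (rat assembly GRCr8, 250 bases before to 50 after a gene's start). Of the 91 genes lower with naringenin 73 had a promoter in that table, and 17 of these held the letters (23.3%). Of the 53 higher genes 39 had a promoter and 4 held the letters (10.3%). Among all tested genes with a promoter the share was 15.6% (1662 of 10680), and among all promoters 13.1%. For the letters TNGCGTG of the xenobiotic response element, to which AhR binds, the shares were 6.85% of the lower genes, 10.3% of the higher, 7.9% of the tested and 5.45% of all promoters. These are matches of letters, with no test, and no binding was measured. The promoters below belong to 3 genes that fell (Me1, Zfand2a and Slc15a1) and 1 that rose (Sema7a), picked among genes with a match to show how it sits in genes of both directions. Capitals mark the antioxidant response element, and each is written 5′ to 3′ on the gene's own strand.
Me1 (chr8:96540195-96540494, minus strand): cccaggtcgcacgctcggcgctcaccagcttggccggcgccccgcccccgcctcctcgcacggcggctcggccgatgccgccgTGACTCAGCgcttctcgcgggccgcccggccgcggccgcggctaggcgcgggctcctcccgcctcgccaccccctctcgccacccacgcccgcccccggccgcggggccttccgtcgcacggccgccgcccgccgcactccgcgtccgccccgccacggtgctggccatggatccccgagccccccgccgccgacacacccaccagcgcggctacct
Zfand2a (chr12:20275200-20275499, plus strand): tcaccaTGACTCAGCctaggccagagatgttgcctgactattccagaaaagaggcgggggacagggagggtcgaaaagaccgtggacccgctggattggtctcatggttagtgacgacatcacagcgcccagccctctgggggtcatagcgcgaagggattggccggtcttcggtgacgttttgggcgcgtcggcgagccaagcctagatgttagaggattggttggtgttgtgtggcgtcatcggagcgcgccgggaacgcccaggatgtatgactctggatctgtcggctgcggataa
Slc15a1 (chr15:104949295-104949594, minus strand, match on the opposite strand): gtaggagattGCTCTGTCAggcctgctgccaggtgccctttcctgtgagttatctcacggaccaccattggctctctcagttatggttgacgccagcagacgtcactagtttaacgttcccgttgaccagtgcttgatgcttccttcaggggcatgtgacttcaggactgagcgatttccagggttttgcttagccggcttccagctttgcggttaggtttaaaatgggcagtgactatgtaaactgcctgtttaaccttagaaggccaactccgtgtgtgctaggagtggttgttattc
Sema7a (chr8:67244068-67244367, plus strand): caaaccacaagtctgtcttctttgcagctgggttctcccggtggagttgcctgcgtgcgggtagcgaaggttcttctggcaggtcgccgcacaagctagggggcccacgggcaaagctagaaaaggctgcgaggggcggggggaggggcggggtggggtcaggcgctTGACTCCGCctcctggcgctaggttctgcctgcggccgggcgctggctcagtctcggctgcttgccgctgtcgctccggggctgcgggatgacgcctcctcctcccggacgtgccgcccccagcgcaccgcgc
The match began 167 bases before the start of Me1, 244 before that of Zfand2a, 240 before that of Slc15a1 and 83 before that of Sema7a. Me1 and Zfand2a carry the same 9 letters.

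Of 15 tested genes of heme and iron handling 3 fell (Hmox1, Slc40a1 and Blvrb) and none rose, 14 had a negative sign, and the median log2 fold change was -0.18. Under the set block 7 passed as lower, and on sums 0 as higher and 2 as lower. Slc40a1, ferroportin, the exporter of iron from cells, had 6.25, 4.705, 7.01, 5.53 and 5.44 CPM with naringenin, against 11.1, 9.62, 14.8, 10.7 and 8.78 CPM with CSE alone. Its highest naringenin library was below its lowest CSE library. Slc40a1 fell by 0.93 on the log2 scale (SE 0.19, edgeR adjusted p = 0.03397) and lost the call without naringenin library 1, 2, 4 or 5, or without CSE-alone library 1, 3 or 4 (adjusted p up to 0.0967). Blvrb, which reduces biliverdin and flavins, averaged 96.1 ± 7.35 CPM with naringenin and 123 ± 5.56 CPM with CSE alone (log2 -0.36, edgeR adjusted p = 0.03995), a call lost without any library but naringenin library 3 (adjusted p up to 0.106). Tfrc, the transferrin receptor that brings iron in, averaged 122 ± 9.24 CPM with naringenin and 162 ± 27.7 CPM with CSE alone and did not pass (log2 -0.41, edgeR adjusted p = 0.246, 0.00587 with the block and 0.1102 on sums).

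Aldo-keto and carbonyl reductases, which detoxify aldehydes and ketones, gave 2 falls among 11 tested members, Akr1b8 and Akr7a3, with 7 negative signs and a median log2 fold change of -0.39. Once sets were a block, 6 passed as lower and 1 as higher, and on sums 0 as higher and 3 as lower. Akr1b8 (chromosome 4, 61771970 to 61828559) had 598, 599, 709.8, 617 and 744 CPM with naringenin, against 1030.4, 1261, 1136, 1396 and 1549.7 CPM with CSE alone. Akr7a3, an aflatoxin aldehyde reductase, had 63.4, 52.2, 84.7, 75.1 and 56.8 CPM with naringenin, against 120.2, 119, 144, 130.4 and 104 CPM with CSE alone. For both genes the groups stayed apart by a wide margin. Akr1b8 fell by 0.96 on the log2 scale (SE 0.16, edgeR adjusted p = 0.00942) and Akr7a3 by 0.90 (SE 0.13, edgeR adjusted p = 0.00457), and both calls remained without any single library. Akr genes have near-identical copies among which reads can be split, so these counts carry that uncertainty. Ptgr1, which reduces prostaglandins and unsaturated aldehydes, averaged 63.998 ± 23.9 CPM with naringenin and 127 ± 45.3 CPM with CSE alone (log2 -0.99, edgeR adjusted p = 0.0741, 2.70e-04 with the block and 0.04098 on sums, and 0.0422 without naringenin library 2). Glrx, glutaredoxin, fell by 0.41 on the log2 scale (edgeR adjusted p = 0.0417, up to 0.117 without 1 library, and past the threshold only without CSE library 1). Adh7, a retinol and alcohol dehydrogenase, ranged from 10.98 to 84.5 CPM over naringenin libraries and from 34.4 to 140.4 CPM over CSE libraries, highest in set 1 of both groups (log2 -0.62, edgeR adjusted p = 0.721).

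None of the 7 tested AhR targets passed, while 2 had an unadjusted p under 0.05 and 2 passed in DESeq2. All 7 had a negative sign (median log2 fold change -0.22). With sets as a block 2 passed as lower, and on sums 0 as higher and 1 as lower. Cyp1a1, the cytochrome P450 most strongly induced by AhR ligands, had 123, 147, 121, 107 and 81.3 CPM with naringenin, against 203, 321, 160.02, 271 and 122 CPM with CSE alone and 3.36 ± 0.967 CPM in the control. The groups overlapped, since the set 2 libraries were the highest of each group and library 5 the lowest. The log2 fold change of Cyp1a1 was -0.89 (SE 0.25, edgeR adjusted p = 0.1004, 3.31e-04 with the block and 0.0229 on sums), at -0.66, -1.13 and -0.58 within sets 1 to 3. Cyp1b1, a related P450, averaged 228 ± 87.03 CPM with naringenin and 265 ± 70.1 CPM with CSE alone (log2 -0.22, edgeR adjusted p = 0.796). Ahrr, the repressor that AhR induces against itself, averaged 3.09 ± 1.99 CPM with naringenin and 5.03 ± 1.89 CPM with CSE alone (log2 -0.70, edgeR adjusted p = 0.531). Aldh3a1, an aldehyde dehydrogenase, averaged 1326 ± 365 CPM with naringenin and 1572 ± 229 CPM with CSE alone (log2 -0.25, edgeR adjusted p = 0.744). With naringenin these 4 genes were still well above the control, at 9.01 ± 2.76 CPM for Cyp1b1, 0.468 ± 0.195 CPM for Ahrr and 183 ± 87.4 CPM for Aldh3a1 there.

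Of 22 tested members of the list of oxidation genes and PPAR targets 5 fell (Cpt1a, Cpt2, Acot2, Hadha and Hadhb), none rose and 18 had a negative sign, with a median log2 fold change of -0.25. With the set block 13 passed as lower and 0 as higher, and on sums 0 as higher and 5 as lower. Hadha was not among the 5 that passed on sums (edgeR adjusted p = 0.149). Cpt1a (chromosome 1, 218569510 to 218629678), the regulated step of fatty acid entry into mitochondria, had 70.96, 93.5, 71.8, 63.996 and 64.4 CPM with naringenin, against 111, 178, 128, 192 and 106 CPM with CSE alone. The set 2 libraries of CSE alone were the highest, and the lowest CSE library was still above the highest naringenin library. Cpt1a fell by 0.97 on the log2 scale (SE 0.18, edgeR adjusted p = 0.0218) and lost the call without naringenin library 1, 4 or 5, or without CSE-alone library 4 (adjusted p up to 0.0706). Cpt2, the inner-membrane partner of Cpt1a, had 51.8, 47.8, 52.3, 47.5 and 51.5 CPM with naringenin, against 64.6, 76.3, 71.9, 82.3 and 71.95 CPM with CSE alone. Its naringenin libraries lay within a few CPM of each other and all below the CSE libraries. Cpt2 fell by 0.55 on the log2 scale (SE 0.071, edgeR adjusted p = 0.002202).

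Acot2, a mitochondrial acyl-CoA thioesterase, averaged 5.596 ± 0.823 CPM with naringenin and 9.69 ± 1.29 CPM with CSE alone (log2 -0.79, edgeR adjusted p = 0.0368), lost without naringenin library 1, 2, 3 or 5, or without CSE-alone library 1, 3, 4 or 5 (adjusted p up to 0.0987). Hadha and Hadhb encode the 2 subunits of the trifunctional protein, which carries out the later steps of oxidation of long chains. Hadhb averaged 98.2 ± 7.91 CPM with naringenin and 124 ± 8.198 CPM with CSE alone (log2 -0.33, edgeR adjusted p = 0.0319), lost without naringenin library 1, 3, 4 or 5, or without CSE-alone library 2, 3, 4 or 5 (adjusted p up to 0.0823). Hadha averaged 146 ± 3.08 CPM with naringenin and 167 ± 4.64 CPM with CSE alone (log2 -0.19, edgeR adjusted p = 0.0462), a call lost without any one of the 10 libraries (adjusted p up to 0.1301). In the control Cpt1a averaged 76.8 ± 13.8 CPM, Cpt2 45.2 ± 3.49 CPM, Acot2 4.73 ± 1.11 CPM, Hadha 149 ± 3.504 CPM and Hadhb 96.2 ± 5.02 CPM, each within 1.5 times of its naringenin level. Pdk4, a kinase that inhibits pyruvate dehydrogenase and a PPAR target, averaged 11.3 ± 4.62 CPM with naringenin and 19.6 ± 3.64 CPM with CSE alone without passing (log2 -0.79, edgeR adjusted p = 0.2496, 0.00526 with the block and 0.08297 on sums). Plin2, which coats lipid droplets, had 29.2, 28.6, 31.1, 32.99 and 39.99 CPM with naringenin, against 47.5, 49.4, 53.2, 52.2 and 79.5 CPM with CSE alone. The groups did not overlap, with library 5 the highest of both (log2 -0.80, SE 0.18, edgeR adjusted p = 0.0521, 3.80e-05 with the block and 0.0144 on sums). Mgll, which splits monoglycerides, fell by 0.64 on the log2 scale (edgeR adjusted p = 0.0225), and Sqor, a mitochondrial sulfide oxidoreductase, by 0.51 (edgeR adjusted p = 0.0131). The call on Sqor remained without any single library and that on Mgll was lost without naringenin library 1, 2 or 5, or without CSE-alone library 1, 3 or 4 (adjusted p up to 0.0799).

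Lipid synthesis genes moved in both directions. Of 21 tested members of fatty acid synthesis and desaturation 1 rose (Scd2) and 3 fell (Agpat2, Me1 and Elovl1), with a median log2 fold change of 0.12. In the fit with the set block 6 passed as higher and 4 as lower, and on sums 2 as higher and 1 as lower. None of the 3 falls passed on sums (edgeR adjusted p = 0.0962 for Agpat2, 0.0514 for Me1 and 0.0795 for Elovl1). Scd2 (chromosome 1, 264059374 to 264072433), a stearoyl-CoA desaturase that puts a double bond into fatty acids, had 1288, 1580.3, 1218, 1095 and 1049 CPM with naringenin, against 764, 658, 595, 636 and 590.5 CPM with CSE alone. All naringenin libraries were above the highest CSE library, and the control averaged 713 ± 93.4 CPM. Scd2 rose by 0.94 on the log2 scale (SE 0.12, edgeR adjusted p = 0.00183). Scd, its paralog, had 12.4, 19.2, 18.3, 20.7 and 7.95 CPM with naringenin, against 13.5, 4.36, 7.83, 3.28 and 3.27 CPM with CSE alone. The groups overlapped through CSE library 1 and naringenin library 5, and Scd did not pass (log2 1.28, SE 0.43, edgeR adjusted p = 0.187, 0.0177 with the block and 0.186 on sums). Reads can be split between Scd and Scd2.

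Fads2, a desaturase of polyunsaturated fatty acids, averaged 34.8 ± 8.75 CPM with naringenin and 18.7 ± 9.66 CPM with CSE alone (log2 0.90, edgeR adjusted p = 0.185, 0.0171 with the block and 0.133 on sums, and 0.0413 without CSE library 1). Its partner Fads1 averaged 73.2 ± 16.1 CPM with naringenin and 51.01 ± 19.3 CPM with CSE alone (log2 0.52, edgeR adjusted p = 0.395, 0.00476 with the block and 0.105 on sums). Fasn, fatty acid synthase, averaged 362 ± 73.5 CPM with naringenin and 286 ± 47.7 CPM with CSE alone (log2 0.34, edgeR adjusted p = 0.387, 0.00309 with the block and 0.0467 on sums). None of these 3 passed without the block. On the falling side, Agpat2, an acyltransferase on the path to triglycerides and phospholipids, averaged 12.5 ± 0.825 CPM with naringenin and 17.2 ± 1.31 CPM with CSE alone (log2 -0.46, edgeR adjusted p = 0.03995), lost without any one of the 10 libraries (adjusted p up to 0.117). Elovl1, an elongase of very long chains, averaged 66.6 ± 2.15 CPM with naringenin and 81.04 ± 3.88 CPM with CSE alone (log2 -0.28, edgeR adjusted p = 0.0319), lost without naringenin library 1, 2, 3, 4 or 5, or without CSE-alone library 3, 4 or 5 (adjusted p up to 0.0903). Dgat2, the last enzyme of triglyceride synthesis, had 43.5, 45.4, 43.2, 44.5 and 63.98 CPM with naringenin, against 69.02, 80.9, 73.1, 82.9 and 90.2 CPM with CSE alone. Its groups did not overlap, and it did not pass (log2 -0.72, SE 0.17, edgeR adjusted p = 0.0628, 1.46e-04 with the block and 0.0475 on sums).

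Of 22 tested genes of cholesterol synthesis and uptake 2 rose (Mvd and Dhcr7), none fell and 21 had a positive sign, with a median log2 fold change of 0.17. Under the set block 4 passed as higher, and on sums 1 as higher and 0 as lower. Mvd, mevalonate diphosphate decarboxylase, had 33.7, 43.4, 32.1, 30.3 and 31.5 CPM with naringenin, against 20.4, 25.2, 20.3, 26.4 and 19.8 CPM with CSE alone. Naringenin library 2 was the highest, and the groups did not overlap. Mvd rose by 0.61 on the log2 scale (SE 0.11, edgeR adjusted p = 0.0218) and lost the call without naringenin library 1, or without CSE-alone library 1, 3 or 5 (adjusted p up to 0.0697). Dhcr7, the last enzyme of one branch of cholesterol synthesis, had 54.4, 68.5, 50.4, 42.8 and 48.99 CPM with naringenin, against 36.3, 36.8, 30.5, 43.04 and 34.7 CPM with CSE alone. Naringenin library 4 was just under CSE library 4, so the groups overlapped. Dhcr7 rose by 0.55 on the log2 scale (SE 0.11, edgeR adjusted p = 0.0368) and lost the call without naringenin library 1, 2, 3 or 5, or without CSE-alone library 1, 2, 3 or 5 (adjusted p up to 0.0987). Of 7 tested LXR targets, genes of cholesterol export and lipid synthesis, none passed, 3 had an unadjusted p under 0.05 and 0 passed in DESeq2, and 3 passed as higher and 1 as lower with the set block, against 0 as higher and 0 as lower on sums. Among them the exporter Abca1 ranged from 24.1 to 86.8 CPM over naringenin libraries and from 18.6 to 53.9 CPM over CSE libraries, highest in set 2 of both groups (log2 0.59, edgeR adjusted p = 0.674, 0.0163 with the block and 0.104 on sums).

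Genes of protein turnover and folding differed in sign from list to list. All 31 tested proteasome subunits had a negative sign (median log2 fold change -0.20), of which 2 fell (Psmb3 and Psmd2) and 29 did not pass. Once sets were a block, 21 passed as lower and 0 as higher, but on sums 0 as higher and 1 as lower. Neither Psmb3 nor Psmd2 passed on sums (edgeR adjusted p = 0.0615 and 0.0674), so the 1 lower gene there is another member. Psmb3, a subunit of the catalytic core, averaged 82.8 ± 3.53 CPM with naringenin and 103 ± 11.3 CPM with CSE alone (log2 -0.32, edgeR adjusted p = 0.0462), which, when 1 library was left out, held only without CSE library 1 (adjusted p up to 0.123). Psmd2, a subunit of the regulatory cap, had 395, 380.4, 367, 371 and 388 CPM with naringenin, against 437, 432, 455, 449 and 520.4 CPM with CSE alone. CSE library 5 was the highest and the groups did not overlap (log2 -0.27, SE 0.058, edgeR adjusted p = 0.0417), but the call was lost without any one of the 10 libraries (adjusted p up to 0.104). Psmd5, a chaperone that assembles the cap, had 81.5, 74.7, 81.996, 75.9 and 77.3 CPM with naringenin, against 113, 106, 111, 106 and 130.2 CPM with CSE alone. Psmd5 fell by 0.53 on the log2 scale (SE 0.071, edgeR adjusted p = 0.002202). Usp14, a deubiquitinase bound to the proteasome, fell by 0.28 (edgeR adjusted p = 0.0391), lost without naringenin library 1, 3, 4 or 5, or without CSE-alone library 2, 3, 4 or 5 (adjusted p up to 0.101).

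None of the 13 tested heat shock genes passed, while 5 had an unadjusted p under 0.05 and 0 passed in DESeq2. All 13 had a negative sign, with a median log2 fold change of -0.35. With sets as a block 8 passed as lower, and on sums 0 as higher and 2 as lower. The medians within sets 1, 2 and 3 were -0.26, -0.19 and -0.75. Hspb1, a small heat shock protein, had 73.6, 73.9, 139.8, 137 and 212 CPM with naringenin, against 293, 149.6, 284, 159 and 723 CPM with CSE alone. Hspa1b, the inducible cytosolic chaperone, had 41.6, 66.2, 61.04, 63.9 and 204 CPM with naringenin, against 156, 79.9, 135, 87.5 and 493 CPM with CSE alone. Library 5 was the highest of each group for both genes, and the groups overlapped. The log2 fold change was -1.34 (SE 0.44) for Hspb1, with an edgeR adjusted p of 0.178 and of 3.76e-04 with the block and 0.0495 on sums. It was -1.12 (SE 0.57) for Hspa1b, with an edgeR adjusted p of 0.431 and of 3.57e-04 with the block and 0.0199 on sums. Inducible Hspa genes are near-identical copies, so their split is uncertain.

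Chaperones of the endoplasmic reticulum had the opposite sign. All 17 tested members were higher by sign (median log2 fold change 0.20), of which 2 rose (Pdia4 and Pdia6), and 10 passed as higher with the set block, against 0 as higher and 0 as lower on sums. Pdia4, a protein disulfide isomerase, had 328, 294, 288, 307 and 318 CPM with naringenin, against 244, 249, 225, 239 and 271 CPM with CSE alone. Pdia6, of the same family, had 264, 284, 254, 258 and 268 CPM with naringenin, against 222, 229, 199, 226 and 219.7 CPM with CSE alone. The groups did not overlap for either gene. Pdia4 rose by 0.32 on the log2 scale (SE 0.063, edgeR adjusted p = 0.0287) and lost the call without naringenin library 1, 4 or 5, or without CSE-alone library 1, 2, 3 or 4 (adjusted p up to 0.0938). Pdia6 rose by 0.28 (SE 0.055, edgeR adjusted p = 0.0327), a call that held without naringenin library 3 and was lost without any other (adjusted p up to 0.0911). Hspa5, the main chaperone of the compartment, averaged 915 ± 123 CPM with naringenin and 779 ± 184 CPM with CSE alone (log2 0.23, edgeR adjusted p = 0.538, 0.0422 with the block and 0.355 on sums). None of 17 tested genes of the ATF4 arm of the stress response passed (median log2 fold change -0.096, 0 at an unadjusted p under 0.05 and 0 in DESeq2), while 1 passed as higher with the set block and 0 as higher and 0 as lower on sums. Pycr1, of mitochondrial proline synthesis, had 9.27, 10.1, 10.3, 10.8 and 9.55 CPM with naringenin, against 6.17, 5.705, 6.78, 5.94 and 3.84 CPM with CSE alone. Pycr1 rose by 0.81 on the log2 scale (SE 0.17, edgeR adjusted p = 0.03995), with 1.31 in set 3, and the call was lost without any one of the 10 libraries (adjusted p up to 0.0981).

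All 23 tested genes of ribosome biogenesis had a negative sign (median log2 fold change -0.21). Of these 1 fell, Nolc1, a nucleolar phosphoprotein, and 12 passed as lower with the set block, against 0 as higher and 1 as lower on sums. Nolc1 averaged 75.6 ± 3.81 CPM with naringenin and 91.5 ± 2.41 CPM with CSE alone (log2 -0.28, edgeR adjusted p = 0.0218), lost without naringenin library 2, 4 or 5, or without CSE-alone library 3, 4 or 5 (adjusted p up to 0.0703). Nolc1 did not pass on sums (edgeR adjusted p = 0.0599), so the 1 lower gene there is another member. Outside the list, Ppan and Wdr36, which process ribosomal RNA, also fell. Ppan fell by 0.32 on the log2 scale (edgeR adjusted p = 0.0365), lost without naringenin library 1, 2, 3 or 4, or without CSE-alone library 1, 3, 4 or 5 (adjusted p up to 0.0938), and Wdr36 by 0.32 (edgeR adjusted p = 0.0206), lost without naringenin library 1 or 5, or without CSE-alone library 4 (adjusted p up to 0.0706). None of 18 tested genes of aminoacyl-tRNA synthesis and none of 22 proliferation genes passed, with or without the set block or on sums. At an unadjusted p under 0.05 these lists had 1 and 0 genes, and 0 and 0 passed in DESeq2.

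**Figure D3:**
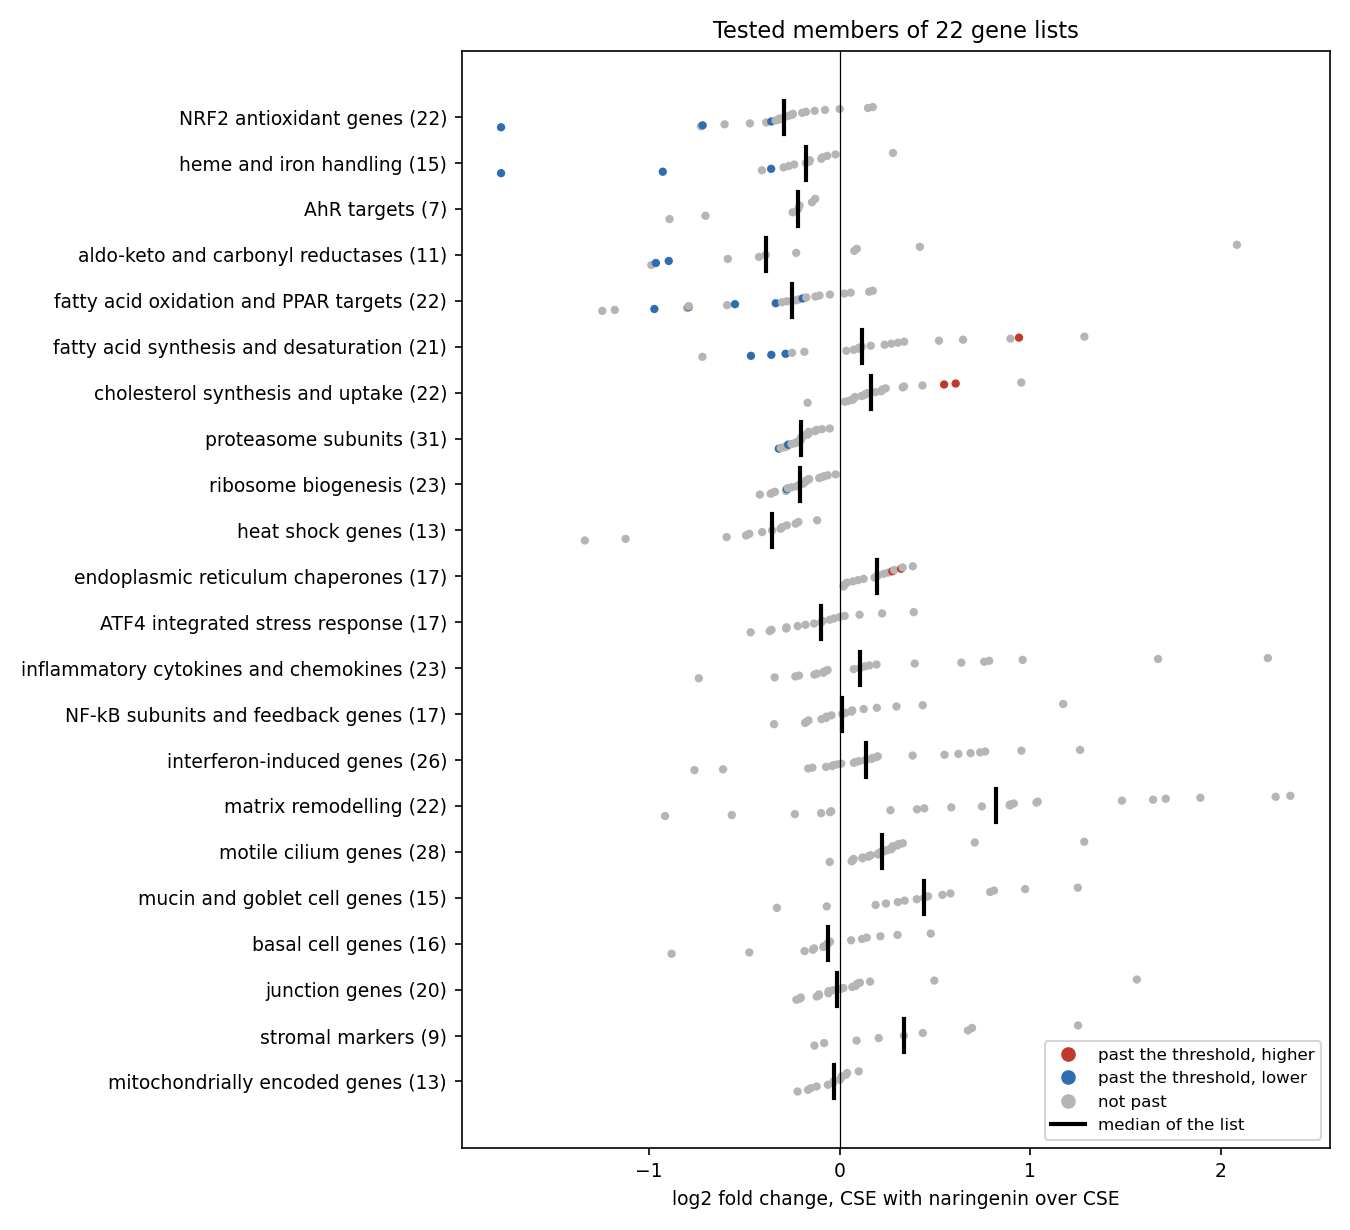
Log2 fold change of CSE with naringenin over CSE alone (x axis) for each tested member of 22 gene lists (rows, with the number tested), with the median of each list as a black bar. Members past the threshold are red (higher) or blue (lower). All 31 proteasome and 23 ribosome biogenesis genes lie left of 0 and all 17 endoplasmic reticulum chaperones right of it, while few single members pass.

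Sema7a (chromosome 8, 62723788 to 62745868), a membrane-anchored semaphorin that signals through integrins, had 29.3, 30.8, 27.2, 23.5 and 29.5 CPM with naringenin, against 7.802, 16.5, 8.23, 13.1 and 9.69 CPM with CSE alone. The lowest naringenin library was above the highest CSE library, and the control averaged 41.5 ± 0.713 CPM. Sema7a rose by 1.34 on the log2 scale (SE 0.17, edgeR adjusted p = 0.00183), at 1.65, 1.03 and 1.60 within sets 1 to 3. Of 26 tested semaphorins and plexins only Sema7a and Sema6a rose and none fell, and with the set block 5 passed as higher and 1 as lower, against 1 as higher and 0 as lower on sums. Sema6a, a transmembrane ligand of plexins, averaged 1.88 ± 0.251 CPM with naringenin and 0.875 ± 0.332 CPM with CSE alone (log2 1.11, edgeR adjusted p = 0.0417). That call held without CSE library 2 and was lost without any other library (adjusted p up to 0.1099).

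Ciita (chromosome 10, 5213350 to 5260608), the transactivator of MHC class II genes, had 5.299, 4.91, 4.71, 7.15 and 4.299 CPM with naringenin, against 2.78, 2.41, 2.52, 2.12 and 2.01 CPM with CSE alone. The groups did not overlap, and the control was higher than either, at 13.4 ± 1.06 CPM. Ciita rose by 1.16 on the log2 scale (SE 0.14, edgeR adjusted p = 0.00161). It was the only one of 10 tested MHC class II genes to pass, with or without the set block, and the median of the list was -0.068. Cd74, the invariant chain and a target of Ciita, averaged 620.2 ± 218 CPM with naringenin and 627 ± 187 CPM with CSE alone (log2 -0.016, edgeR adjusted p = 0.993), a sign that turned positive with the labelled replicate number as a block.

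Gna14, a G protein alpha subunit that activates phospholipase C, had 119.6, 102, 128, 143 and 114 CPM with naringenin, against 63.9, 65.8, 62.1, 56.2 and 60.8 CPM with CSE alone. All naringenin libraries were above the CSE libraries, and the control averaged 113 ± 21.4 CPM. Gna14 rose by 0.97 on the log2 scale (SE 0.12, edgeR adjusted p = 0.00161). Ptpru, a receptor tyrosine phosphatase, had 18.9, 24.8, 19.7, 22.2 and 20.8 CPM with naringenin, against 12.5, 11.5, 8.595, 10.1 and 11.9 CPM with CSE alone. Every naringenin library exceeded every CSE library, and the control averaged 32.2 ± 3.37 CPM. Ptpru rose by 0.96 (SE 0.11, edgeR adjusted p = 0.00161). Nt5e, the surface enzyme that turns AMP into adenosine, had 674, 591, 599, 660.1 and 695 CPM with naringenin, against 437, 452, 396, 402 and 470.1 CPM with CSE alone. No naringenin library was near the CSE range, and the control averaged 787 ± 64.3 CPM. Nt5e rose by 0.58 (SE 0.076, edgeR adjusted p = 0.002202). B3gnt7, a glycosyltransferase that extends keratan sulfate chains, averaged 123 ± 18.3 CPM with naringenin, 69.97 ± 5.28 CPM with CSE alone and 121 ± 17.3 CPM in the control (log2 0.81, edgeR adjusted p = 0.00309). Sema7a, Ciita, Gna14, Ptpru, Nt5e, B3gnt7 and Scd2 kept the call without any single library.

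The next rises lost the call when 1 library was left out. Grik2, a subunit of kainate glutamate receptors, averaged 6.41 ± 2.36 CPM with naringenin and 2.59 ± 0.489 CPM with CSE alone (log2 1.31, edgeR adjusted p = 0.0397), with naringenin library 2 at 3.13 CPM below CSE library 5 at 3.28 CPM. Ccna1, cyclin A1, averaged 9.89 ± 2.41 CPM with naringenin, 4.19 ± 0.378 CPM with CSE alone and 18.98 ± 7.29 CPM in the control (log2 1.24, edgeR adjusted p = 0.0326). Mmd, a membrane protein of the progestin and adipoQ receptor family, averaged 5.57 ± 1.57 CPM with naringenin and 2.403 ± 0.298 CPM with CSE alone (log2 1.21, edgeR adjusted p = 0.03995). Mab21l3 averaged 7.01 ± 1.401 CPM with naringenin and 3.32 ± 1.03 CPM with CSE alone (log2 1.08, edgeR adjusted p = 0.0332). Fam110b averaged 7.68 ± 0.988 CPM with naringenin and 4.22 ± 0.859 CPM with CSE alone (log2 0.86, edgeR adjusted p = 0.0417). Without any one of the 10 libraries Mmd (adjusted p up to 0.106) and Fam110b (up to 0.108) did not pass. Grik2 passed only without naringenin library 2 (up to 0.0987), Ccna1 was lost without naringenin library 1, 3 or 4, or without CSE-alone library 1, 2, 3, 4 or 5 (up to 0.0938) and Mab21l3 without naringenin library 1, 2, 4 or 5, or without CSE-alone library 1, 3 or 4 (up to 0.0947). Further rises were in Trpv2, a cation channel (log2 0.75, edgeR adjusted p = 0.0218), Plscr1, an interferon-inducible scramblase of membrane lipids (log2 0.55, adjusted p = 0.0181), and Ikbke, a kinase of interferon signalling (log2 0.38, adjusted p = 0.0181). Trpv2 was lost without naringenin library 1, or without CSE-alone library 3, 4 or 5 (up to 0.0706), Plscr1 without naringenin library 1 or 4, or without CSE-alone library 3 or 4 (up to 0.0645) and Ikbke without naringenin library 1 or 4, or without CSE-alone library 3 (up to 0.0604). Dhrs3, which returns retinaldehyde to retinol and was the only one of 17 retinoid genes to pass, averaged 345 ± 35.9 CPM with naringenin and 244 ± 32.01 CPM with CSE alone (log2 0.50, edgeR adjusted p = 0.0218), lost without naringenin library 1, 3 or 4, or without CSE-alone library 2, 4 or 5 (up to 0.0652). With the set block 5 retinoid genes passed as higher, and on sums 3 as higher and 0 as lower.

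Cell death genes gave 2 falls among 21 tested, Bcl2l1 and Gsdma, with 17 negative signs and a median log2 fold change of -0.11; with the set block 7 passed as lower and 1 as higher, and on sums 0 as higher and 2 as lower. Bcl2l1, which gives the survival protein BCL-XL and the shorter pro-death form, had 138, 155, 148, 143 and 154 CPM with naringenin, against 189.9, 190.1, 207, 203 and 215 CPM with CSE alone. Gene counts do not part the 2 forms. The groups stayed well apart, and Bcl2l1 fell by 0.45 on the log2 scale (SE 0.053, edgeR adjusted p = 0.00161). Gsdma, a pore-forming gasdermin, averaged 5.02 ± 0.3099 CPM with naringenin and 7.61 ± 1.32 CPM with CSE alone (log2 -0.60, edgeR adjusted p = 0.0442), past the threshold only without CSE library 1 when 1 library was left out (adjusted p up to 0.122). Gsdma did not pass on sums (edgeR adjusted p = 0.083), so it is not 1 of the 2 lower genes there. Of 18 tested p53 targets 1 fell, Gadd45g, a stress-induced growth arrest gene, at 10.6 ± 0.545 CPM with naringenin and 16.7 ± 3.32 CPM with CSE alone (log2 -0.65, edgeR adjusted p = 0.0224), lost without naringenin library 1, 3, 4 or 5, or without CSE-alone library 3 or 4 (up to 0.0645). With the set block 3 of the p53 targets passed as lower, and on sums 0 as higher and 1 as lower.

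Among growth factor genes, Tgfa, an EGF receptor ligand made by epithelium, was the only one of 15 tested ligands and receptors to pass. It had 44.1, 46.7, 52.4, 49.03 and 45.8 CPM with naringenin, against 70.02, 65.3, 70.5, 70.7 and 61.7 CPM with CSE alone, with no overlap. Tgfa fell by 0.51 on the log2 scale (SE 0.11, edgeR adjusted p = 0.0413), a call lost without any one of the 10 libraries (adjusted p up to 0.117) and on sums (0.137). Id2, a helix-loop-helix inhibitor that answers to BMP, was the only one of 21 TGF-beta and BMP genes to pass, at 32.8 ± 5.91 CPM with naringenin, 52.5 ± 9.37 CPM with CSE alone and 10.9 ± 1.53 CPM in the control (log2 -0.68, edgeR adjusted p = 0.03995), lost without naringenin library 1, 3, 4 or 5, or without CSE-alone library 2, 3, 4 or 5 (up to 0.0947). In the fit with the set block 4 of that list passed as higher and 1 as lower, and on sums 0 as higher and 1 as lower. Slc39a10, a zinc importer and the only one of 8 metallothionein and zinc genes to pass, had 33.2, 33.5, 33.9, 36.6 and 37.3 CPM with naringenin, against 48.6, 48.1, 46.4, 50.6 and 50.5 CPM with CSE alone. It fell by 0.48 (SE 0.068, edgeR adjusted p = 0.00382), and the call remained without any single library. Of 19 AP-1 and immediate early genes none passed (1 at an unadjusted p under 0.05, 0 in DESeq2, 2 as lower with the set block and 0 as higher and 0 as lower on sums) and 15 had a negative sign. Among these was Fosl1, a Fos family member of AP-1, at 2.04, 2.41, 3.88, 2.85 and 4.095 CPM with naringenin, against 7.43, 6.26, 6.85, 8.01 and 11.8 CPM with CSE alone (log2 -1.40, edgeR adjusted p = 0.283, 0.0157 with the block and 0.189 on sums).

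None of 23 cytokines and chemokines, 17 NF-kB genes, 26 interferon-induced genes and 18 complement and antimicrobial genes passed in edgeR at an adjusted p of 0.05. At an unadjusted p under 0.05 there were 3, 1, 2 and 1 of these in that order, and 0, 0, 1 and 0 passed in DESeq2. Under the set block 3 cytokines and chemokines passed as higher and 0 as lower, against 1 as higher and 0 as lower on sums. Of NF-kB genes 1 passed as higher and 2 as lower with the block, of interferon-induced genes 4 as higher and 1 as lower, and of complement and antimicrobial genes 1 as lower, and none of these 3 lists had a member past the threshold on sums. Ccl2, a chemokine that attracts monocytes, had 1.004, 1.61, 1.17, 1.33 and 1.19 CPM with naringenin, against 0.5595, 0.707, 0.5997, 0 and 0.105 CPM with CSE alone, where CSE library 4 is listed at 0. The groups did not overlap, but at this level the log2 fold change of 1.67 (SE 0.64) had an edgeR adjusted p of 0.2603, and 0.0362 with the block and 0.0725 on sums. The control was higher at 7.19 ± 4.09 CPM. Il33, an alarmin of barrier epithelium, averaged 440.2 ± 109 CPM with naringenin, 283 ± 76.1 CPM with CSE alone and 492 ± 133 CPM in the control (log2 0.64, edgeR adjusted p = 0.199, 0.00129 with the block and 0.0448 on sums). Outside these lists Ifitm3, an interferon-induced membrane protein that restricts virus entry, averaged 371 ± 30.5 CPM with naringenin and 273 ± 32.5 CPM with CSE alone. The groups did not overlap, and Ifitm3 rose by 0.44 on the log2 scale (SE 0.093, edgeR adjusted p = 0.03995), a call lost without naringenin library 1, 3, 4 or 5, or without CSE-alone library 1, 2, 3 or 4 (adjusted p up to 0.109), and on sums (adjusted p = 0.09295). Plscr1 and Ikbke, given above, are also outside these lists.

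Of 28 tested genes of motile cilia 27 had a positive sign (median log2 fold change 0.22), none passed, and 12 passed as higher with the set block, against 0 as higher and 0 as lower on sums. At an unadjusted p under 0.05 there were 4, and 0 passed in DESeq2. Dnah5, an axonemal dynein heavy chain, had 172, 139, 160.2, 173 and 105 CPM with naringenin, against 122, 141, 132, 127 and 82.4 CPM with CSE alone and 199 ± 51.5 CPM in the control. The groups overlapped (log2 0.31, SE 0.20, edgeR adjusted p = 0.559, 0.0184 with the block and 0.126 on sums). Hydin, of the central pair of the axoneme, averaged 897 ± 191 CPM with naringenin, 713 ± 131 CPM with CSE alone and 1101 ± 211 CPM in the control (log2 0.33, edgeR adjusted p = 0.448, 0.0114 with the block and 0.102 on sums). Outside the list Cfap100, a cilia- and flagella-associated gene, had 109, 100.5, 103, 108 and 96.2 CPM with naringenin, against 61.9, 64.3, 58.8, 68.9 and 52.2 CPM with CSE alone and 129 ± 23.5 CPM in the control. Every naringenin library was above every CSE library. Cfap100 rose by 0.76 on the log2 scale (SE 0.11, edgeR adjusted p = 0.00571), and the call remained without any single library and on sums (adjusted p = 0.0238). In such bulk samples fewer cells of a type and less RNA per cell cannot be told apart.

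Of 15 tested mucin and goblet cell genes none passed (5 at an unadjusted p under 0.05, 3 in DESeq2), with a median log2 fold change of 0.44, and 6 passed as higher and 1 as lower with the block, against 0 as higher and 0 as lower on sums. Muc4, a membrane mucin, averaged 2961 ± 408 CPM with naringenin and 2177 ± 433 CPM with CSE alone (log2 0.44, edgeR adjusted p = 0.474, 0.0385 with the block and 0.286 on sums). Muc5b, a secreted mucin, ranged from 58.7 to 377 CPM over naringenin libraries and from 24.5 to 264 CPM over CSE libraries (log2 0.79, edgeR adjusted p = 0.724), at 1.21 and 1.48 within sets 1 and 2 and -0.071 in set 3. Scgb1a1, the club cell secretoglobin, averaged 451 ± 112 CPM with naringenin and 399 ± 75.1 CPM with CSE alone (log2 0.18, edgeR adjusted p = 0.819). Krt5, the basal cell keratin, had 20.6, 128, 182, 186 and 60.3 CPM with naringenin, against 323, 32.7, 174, 18.2 and 53.8 CPM with CSE alone. Its level varied widely within both groups, and its log2 fold change of -0.062 (SE 0.75, edgeR adjusted p = 0.988) turned positive with the set block. None of 11 squamous genes passed (3 at an unadjusted p under 0.05, 0 in DESeq2), while all 11 had a negative sign (median log2 fold change -0.36) and 3 passed as lower with the block, against 0 as higher and 0 as lower on sums. Outside that list Ppl, periplakin of the cornified envelope, averaged 257 ± 32.1 CPM with naringenin and 337 ± 24.3 CPM with CSE alone and fell by 0.39 on the log2 scale (edgeR adjusted p = 0.03995), lost without naringenin library 1, 4 or 5, or without CSE-alone library 1, 2, 3 or 4 (up to 0.112), and on sums (0.0784). Krt20, a keratin, averaged 1.15 ± 0.283 CPM with naringenin and 3.11 ± 0.992 CPM with CSE alone and fell by 1.43 (edgeR adjusted p = 0.03995), a call that held without CSE library 1 and was lost without any other library (up to 0.111), and on sums (0.0656).

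Cftr, the apical chloride channel, had 42.1, 69.5, 15.5, 12.5 and 24.2 CPM with naringenin, against 12.1, 30.7, 7.73, 30.7 and 8.77 CPM with CSE alone. The set 2 libraries were the highest of both groups, and the groups overlapped (log2 0.86, SE 0.53, edgeR adjusted p = 0.543, 0.00897 with the block and 0.0612 on sums). Atp12a, a proton pump that acidifies airway fluid, had 27.2, 35.9, 18.6, 22.2 and 45.2 CPM with naringenin, against 9.94, 13.98, 10.4, 13.4 and 24.01 CPM with CSE alone (log2 1.06, SE 0.35, edgeR adjusted p = 0.179, 1.04e-04 with the block and 0.0173 on sums). Library 5 was the highest of both groups. None of 22 tested ion and fluid transport genes passed, against 3 at an unadjusted p under 0.05, 1 in DESeq2 and 6 as higher with the block, against 2 as higher and 0 as lower on sums. None of 22 matrix remodelling genes passed either (8 at an unadjusted p under 0.05, 5 in DESeq2), with a median log2 fold change of 0.82 and, with the block, 10 passing as higher and 2 as lower, against 3 as higher and 0 as lower on sums. Tnc, tenascin C, had 18.7, 26.7, 14.7, 26.8 and 7.77 CPM with naringenin, against 4.99, 11.5, 3.71, 7.76 and 2.31 CPM with CSE alone and 85.1 ± 11.2 CPM in the control. Naringenin library 5 was within the CSE range (log2 1.65, SE 0.38, edgeR adjusted p = 0.0563, 0.00276 with the block and 0.06603 on sums, and as low as 0.0274 without 1 library). Fn1, fibronectin, had 6903, 10940.2, 1349, 1357 and 2658 CPM with naringenin, against 1160.3, 4276, 693, 4259.5 and 951 CPM with CSE alone. The set 2 libraries were the highest of both groups (log2 1.03, SE 0.69, edgeR adjusted p = 0.5796, 0.00605 with the block and 0.0605 on sums). Mmp13, a collagenase, had 14.3, 8.605, 9.203, 8.17 and 53.4 CPM with naringenin, against 2.05, 4.76, 2.28, 3.32 and 6.79 CPM with CSE alone, without overlap and with library 5 the highest of both groups (log2 2.29, SE 0.69, edgeR adjusted p = 0.134, 1.36e-04 with the block and 0.0252 on sums).

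Stromal markers, which fibroblasts would carry, had a median log2 fold change of 0.34. Of 9 tested members none passed, with or without the set block or on sums (0 at an unadjusted p under 0.05, 0 in DESeq2) and 7 had a positive sign, with a summed level of 39.6 to 227 CPM over naringenin libraries and 24.1 to 133 CPM over CSE libraries. Their part in the matrix values was not tested. Of the 15 airway epithelium markers none passed (1 at an unadjusted p under 0.05, 0 in DESeq2, 2 as higher with the block and 0 as higher and 0 as lower on sums). Leukocyte markers had 6 tested members, none past the threshold (1 at an unadjusted p under 0.05, 0 in DESeq2), with a summed level of 124 to 173 CPM with naringenin and 106 to 154 CPM with CSE alone. Ptprc, the pan-leukocyte marker, was listed at 0 counts in all 5 naringenin libraries and held 52 counts over the CSE libraries, 48 of them in library 5, below the filter. Cd3g, Adgre1 and Itgam, markers of T cells and myeloid cells, were also at 0 counts with naringenin and held 34, 7 and 103 counts over the CSE libraries. Of the 6 tested leukocyte markers 2 had a positive and 4 a negative sign. A difference in leukocyte content was not tested. Of the 3 tested endothelial markers none passed (1 as lower with the block and 0 as higher and 1 as lower on sums), and they summed to 4.2 to 7.27 CPM with naringenin and 7.72 to 12.6 CPM with CSE alone. Among them Eng, a TGF-beta co-receptor, had 3.18, 3.34, 2.55, 1.23 and 2.67 CPM with naringenin, against 4.19, 6.74, 5.16, 7.67 and 6.86 CPM with CSE alone (log2 -1.24, SE 0.31, edgeR adjusted p = 0.0752, 9.11e-04 with the block and 0.0261 on sums). Of 13 mitochondrially encoded genes none passed, with or without the block (0 at an unadjusted p under 0.05, 0 in DESeq2).

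CSE alone against the control gives the scale on which these differences lie, with the same CSE libraries in both comparisons, so that the 2 are not independent. In that comparison 3363 genes passed (21.2%). Hmox1 was higher in CSE than in the control by 2.52 on the log2 scale, beside -1.78 with naringenin over CSE. For Lexm the values were 4.47 for CSE over control and -2.22 for naringenin over CSE, and for Slc15a1 2.76 and -1.31 in that order. Cyp1a1 had 5.999 for CSE over control and -0.89 for naringenin over CSE. Sema7a had -1.91 for CSE over control and 1.34 for naringenin over CSE, Ciita -2.49 and 1.16, and Gna14 -0.87 and 0.97. In all of these the mean with naringenin lay between that with CSE alone and that of the control, except for Gna14, where it was above both. Scd2 and Rnh1 differ from these, since CSE alone did not pass against the control (adjusted p = 0.445 for Scd2 and 0.552 for Rnh1, edgeR). Rnh1 averaged 113 ± 2.92 CPM with naringenin, 150.1 ± 9.26 CPM with CSE alone and 145 ± 2.04 CPM in the control, and Scd2 1246 ± 209.8 CPM, 649 ± 70.3 CPM and 713 ± 93.4 CPM in the same order (SD, n = 5 each). Gadd45g, Gsdma, Pycr1, Dhrs3, Pdia6 and Tgfa likewise passed with naringenin over CSE and did not pass in CSE over control.

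Within library sets the size of several changes varied while the sign did not, among genes called on these same libraries. Lexm differed by -2.36, -1.96 and -2.25 on the log2 scale in sets 1, 2 and 3, Akr1b8 by -0.71, -1.15 and -1.06, and Ciita by 1.12, 1.16 and 1.09. Fam110b was larger in set 3, at 1.52, than in sets 1 and 2, at 0.80 and 0.63. Set 3 has 1 library of each group, so its difference has no replicate. When the effect of naringenin was allowed to differ between sets, 2 of 15860 genes (0.0126%) differed by set, and neither is among the 144.

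**Figure D4:**
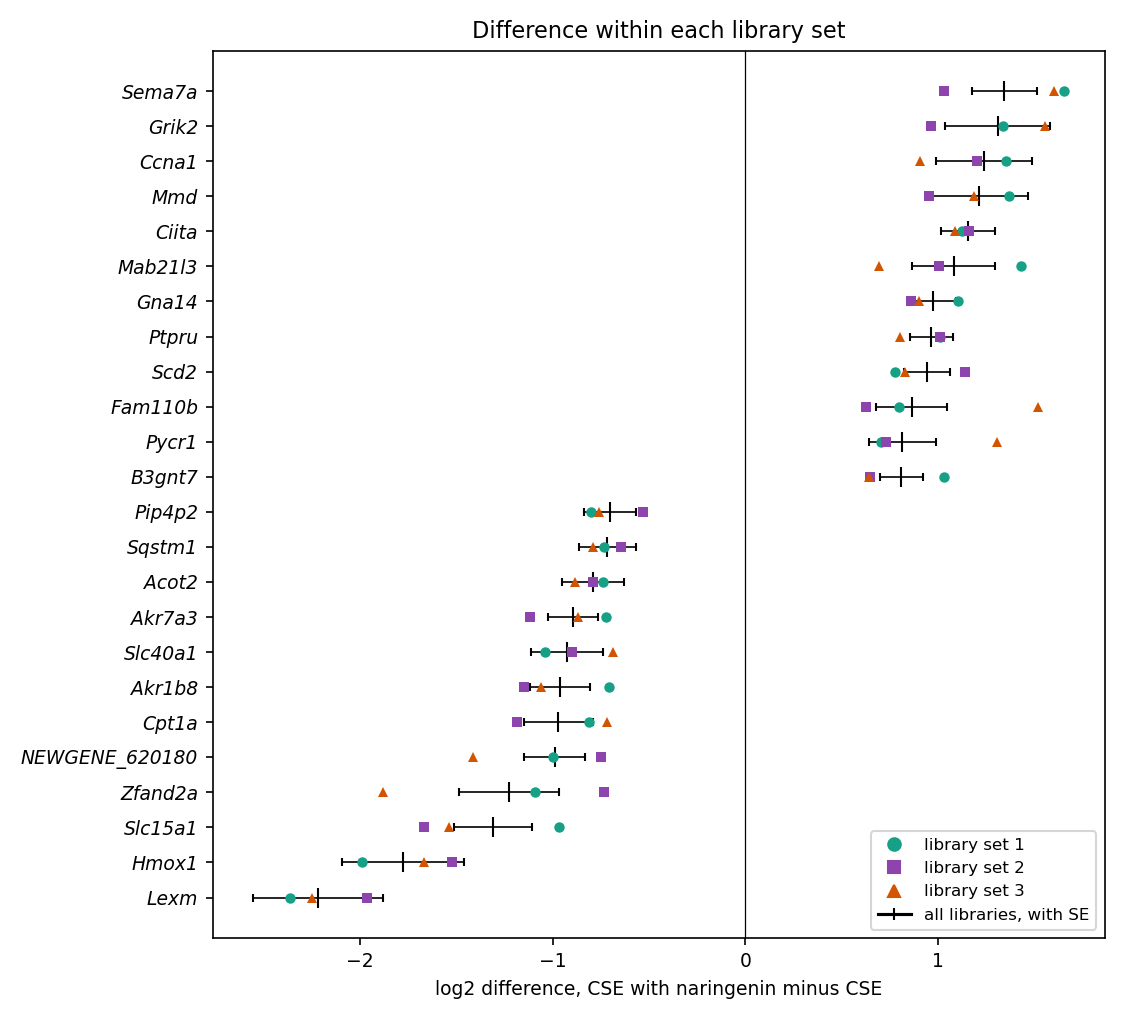
Log2 difference of CSE with naringenin minus CSE alone (x axis) within library sets 1, 2 and 3 (markers) and over all libraries (black, with SE) for the 24 genes with the largest changes past the threshold at a level of at least 5 CPM (rows). The 3 sets lie on the same side of 0 for each gene, and Zfand2a, Fam110b and Pycr1 are largest in set 3. The genes were called on these same libraries.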

How the data were processed

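Poly(A) RNA was sequenced, per the labels' protocols, from 15 libraries of rat tracheal epithelial cells, in strand-specific libraries with molecular identifiers. The deposited counts, whole numbers for each gene in each library, carry no normalization by the authors. FPKM values, computed by the authors, stand beside them in the deposited table and were used in 1 alternative. StringTie 1.3.4d, HISAT2 2.0.4, cutadapt 1.9, UMI-tools, edgeR and DESeq2 appear in the submitters' processing notes, which state neither their roles nor their order. Sources used here do not give the genome build or say whether counting used strand or merged molecular identifiers, so overlapping and near-identical genes are uncertain. Columns matched to no sample numbered 0.

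The test was that of edgeR 4.0.16 (R 4.3.3; filterByExpr over 3 groups, TMM scaling, quasi-likelihood F test, group as the single term, all 15 libraries in 1 fit), with adjustment by Benjamini-Hochberg over 15860 genes. The threshold was an adjusted p of 0.05. Levels are CPM with TMM scaling, as mean ± SD over 5 libraries. Standard errors of log2 fold changes were derived from the F statistic. Depth was 55.1 to 60.6 M counts in all libraries, so 3 counts are about 0.05 CPM. The procedure was run on simulated libraries without library sets, so that run does not show how it behaves where sets are present.

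Genes named are, by rule, the 12 highest and 12 lowest changes past the threshold at 5 CPM or more with a symbol, the 6 smallest p in each direction, all list members past the threshold, and 26 key genes whatever their test; other key genes are not reported here. The 49 gene lists hold 869 members, of which 825 matched (16 by a synonym). The members, lists and key genes were chosen with earlier results of these data known, and 33 further genes after values were seen. Library sets came from clustering the 2000 most variable genes after removal of group means, with the number of sets fixed at 3. Pairs of libraries of 1 group in 1 set had a median chi-square per gene of 2.79 to 5.55 (4 pairs, the 2 groups compared) and other pairs 7.20 to 14.1 (16 pairs), where sampling alone gives 0.455, and every library was counted as a sample of its own. The sets were clustered from these same counts, so lower values within a set follow in part from the clustering. Alternatives were other scalings and filters, DESeq2 1.42.0, limma 3.58.1 with voom and on log2(FPKM + 0.1), 10 libraries alone, blocks for the replicate number and for the library set, sums per set, fits within sets and leaving out libraries. Leaving out set 3 or control library 5 was chosen after seeing the data.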

Additional observations from a re-analysis of the deposited data

Results flagged for a closer look

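In groups of 5 libraries, the highest or lowest library of a named gene was set against the other 4 by Dixon's criterion at the 95% level. Of 309 groups (103 genes in 3 groups) 34 had such a library, where chance gives about 1 in 20. The values below are CPM, with the range of the other libraries of the group, and their causes were not tested.

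As the highest of its group, library 2 of CSE with naringenin stood apart: Aldh3a1 stood at 1966 CPM (1054 to 1262 in the others), Cpt1a stood at 93.5 (63.996 to 71.8 in the others) and Mvd stood at 43.4 (30.3 to 33.7 in the others). As the highest of its group, library 5 of CSE with naringenin stood apart: Dgat2 stood at 63.98 CPM (43.2 to 45.4 in the others), Hspa1b stood at 204 (41.6 to 66.2 in the others) and Mmp13 stood at 53.4 (8.17 to 14.3 in the others). As the lowest of its group, library 5 of CSE with naringenin stood apart: Me1 stood at 174 CPM (196 to 203 in the others). As the highest of its group, library 2 of CSE alone stood apart: Ccna1 stood at 4.86 CPM (3.95 to 4.07 in the others) and Sema6a stood at 1.45 (0.608 to 0.837 in the others). As the highest of its group, library 3 of CSE alone stood apart: Acot2 stood at 11.9 CPM (8.65 to 9.52 in the others). As the highest of its group, library 5 of CSE alone stood apart: Atp12a stood at 24.01 CPM (9.94 to 13.98 in the others), Hspa1b stood at 493 (79.9 to 156 in the others) and Hspb1 stood at 723 (149.6 to 293 in the others). In the same library, Plin2 stood at 79.5 (47.5 to 53.2 in the others), Ppan stood at 33.1 (27.3 to 28.97 in the others) and Prdx1 stood at 3715 (2511 to 2778 in the others). Likewise, Psmd2 stood at 520.4 (432 to 455 in the others) and Zfand2a stood at 195 (62.4 to 95.4 in the others).

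As the lowest of its group, library 3 of the control stood apart: Nt5e stood at 675 CPM (798 to 831 in the others). As the highest of its group, library 5 of the control stood apart: Akr1b8 stood at 491 CPM (269 to 314 in the others), Aldh3a1 stood at 335 (123 to 177 in the others) and Atp12a stood at 69.9 (21.98 to 35.1 in the others). In the same library, Dgat2 stood at 72.5 (38.1 to 40.6 in the others), Fosl1 stood at 33.2 (3.75 to 4.49 in the others) and Glrx stood at 299.7 (230.2 to 246 in the others). Likewise, Hmox1 stood at 283 (139 to 154 in the others), Hspa1b stood at 232 (53.4 to 93.9 in the others) and Mmp13 stood at 114 (15.8 to 21.1 in the others). In that library, also, Muc4 stood at 6627 (2507 to 2875 in the others), Muc5b stood at 1066 (107 to 338 in the others) and Plin2 stood at 74.8 (38.6 to 47.5 in the others). There, Scgb1a1 stood at 1092 (433 to 571 in the others), Tfrc stood at 108 (59.1 to 72.5 in the others) and Tgfa stood at 74.9 (47.6 to 53.2 in the others).

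The effect of naringenin over CSE differed between library sets for 2 genes, both named after their values were seen. Mrpl53, a protein of the mitochondrial ribosome, differed by 0.043, -1.08 and 0.041 on the log2 scale in sets 1, 2 and 3 (edgeR interaction, adjusted p = 0.0112). LOC103692169 differed by 0.0048, 2.03 and 0.044 in the same order (adjusted p = 1.65e-04, edgeR interaction). Neither passed for naringenin over CSE without the sets, and sets 1 and 3 were near 0 for both.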

How the results depend on the processing

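The count of 144 genes past the threshold (53 higher, 91 lower) was 78 (29 higher, 49 lower) with no filter on low counts and 602 (278 higher, 324 lower) with DESeq2. It was 666 (391 higher, 275 lower) within library set 1, 639 (281 higher, 358 lower) within set 2, and 2015 (1057 higher, 958 lower) with the library set as a block. Counts summed per set and group gave 196, with 111 higher and 85 lower. Without set 3, chosen after seeing the data, it was 253 (113 higher, 140 lower). Leaving out 1 library gave 36 to 369 genes, 13 to 155 higher and 23 to 214 lower. The lowest was without naringenin library 1 and the highest without control library 5, which was added after seeing the data. Each of the 10 libraries compared moved the count by over 1.5 times when left out, to 36, 92, 80, 53 and 60 without naringenin libraries 1 to 5 and 84, 86, 44, 52 and 77 without CSE libraries 1 to 5. Each of these fits also had 1 sample fewer, and the cause of the moves was not tested. RLE and upper-quartile scaling, a filter at 1 CPM, limma-voom, limma on FPKM and the 10 libraries alone stayed within 1.5 times, at 141 to 180 genes. All 144 kept their sign in every one of these fits, except that 2 of them were not tested with the filter at 1 CPM. The share of higher genes among those past the threshold, 36.8%, was 39% with RLE and 38.4% with upper-quartile scaling.

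Labelled replicate numbers matched the correlations between libraries for some numbers and not for others. The correlation of deviations between same-numbered libraries of the 2 groups was -0.378, 0.345, 0.361, -0.349 and 0.25 for numbers 1 to 5, and 3 of the 5 naringenin libraries correlated best with the CSE library of their own number. With the replicate number as a block 300 genes passed, with 138 higher and 162 lower, 133 of them among the 144.

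Of the 103 named genes, 31 gained the call and 0 lost it with the set block, 11 gained and 0 lost it in DESeq2, 13 gained and 25 lost it with summed counts, 0 gained and 24 lost it with no filter, 3 gained and 13 lost it with 10 libraries alone, and 9 gained and 5 lost it with the replicate block. Lost with summed counts were Krt20, Slc40a1, Gsdma, Tgfa, Agpat2, Glrx, Ppl, Me1, Ppan, Psmb3, Wdr36, Elovl1 and Nolc1. Usp14, Psmd2, Hadha, Pdia4, Pdia6, Ifitm3, Dhcr7, Pycr1, Fam110b, Sema6a, Mmd and Ccna1 were lost there as well.

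Signs turned for 2 named genes that did not pass in any of these fits. Krt5 (log2 -0.06) was at 0.31 in limma-voom, 0.47 with the replicate block and with the set block, 0.42 with summed counts, 1.55 within set 2, 0.31 on FPKM, and -0.34 to 0.73 with 1 library left out. Cd74 (log2 -0.016) was at 0.0027 with the replicate block, 0.11 within set 1, 0.052 without set 3, and -0.19 to 0.13 with 1 library left out. At 55.1 to 60.6 M counts, a gene at 5 CPM holds over 270 counts, so the spread between libraries and not counting limits most values. Ccl2, at 0 to 1.61 CPM, ranged from 0 counts in CSE library 4 to 41 in CSE library 2, and from 61 to 92 counts over the naringenin libraries.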

Other observations

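Of 22 tested genes of hypoxia and glycolysis none passed and 17 had a negative sign (median log2 fold change -0.14 for CSE with naringenin over CSE alone), with 4 at an unadjusted p under 0.05 in edgeR, 0 in DESeq2, and 8 lower and 1 higher with the set block, against 0 as higher and 0 as lower when counts were summed per set and group. Of 18 genes of prostaglandin synthesis and oxidases none passed and 14 had a positive sign (median 0.37), with 4 at an unadjusted p under 0.05, 0 in DESeq2 and 5 higher with the set block, against 0 as higher and 0 as lower on sums. Of 10 aldehyde dehydrogenases none passed, with 3 at an unadjusted p under 0.05, 0 in DESeq2, and 2 higher and 1 lower with the block, against 1 as higher and 0 as lower on sums. Conjugation enzymes, which add glucuronide, sulfate or glutathione, had 0 of 15 past the threshold, 2 at an unadjusted p under 0.05, 0 in DESeq2 and 3 lower with the block, against 0 as higher and 0 as lower on sums.

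Naringenin is known to bind oestrogen receptors weakly. None of 10 tested oestrogen-responsive genes passed in edgeR, where 0.908% of all tested genes did. At an unadjusted p under 0.05 there were 0, and 0 passed in DESeq2, with a median log2 fold change of -0.024. An effect through these receptors was not tested. Of 20 junction genes, 20 ABC transporters and 18 circadian clock genes none passed, with 2, 0 and 2 at an unadjusted p under 0.05 and 1, 0 and 0 in DESeq2. With the set block 2 junction genes passed as lower, 2 ABC transporters as higher and 2 as lower, and 1 clock gene as higher and 1 as lower, and none of these lists had a member past the threshold on sums. Of 16 basal cell genes and 14 secretory and club cell genes none passed, with 2 and 1 at an unadjusted p under 0.05 and 0 and 0 in DESeq2. With the set block 1 basal cell gene passed as higher and 1 as lower, against 0 as higher and 1 as lower on sums, and no secretory gene passed in either. The 7 tested markers of rare neuroendocrine, tuft and cartilage cells summed to 5.04 to 16.4 CPM with naringenin and 4.08 to 11.2 CPM with CSE alone, and none passed (3 at an unadjusted p under 0.05, 1 in DESeq2, 2 as higher with the set block and 0 as higher and 0 as lower on sums).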
